A study of Mus musculus with 4 samples.

Results

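The genes described here handle iron in MC38, a mouse colon carcinoma line. They are the 10 rows of the deposited TPM table with the symbols Fth1, Ftl1, Tfrc, Slc11a2, Slc40a1, Cp, Steap1, Steap2, Steap3 and Steap4, of 22186 genes listed. The cells stably carried TetOn-CXCL14, a tetracycline-inducible construct for the secreted chemokine CXCL14. Both control cultures received the solvent PBS and both treated cultures 1 µg/mL doxycycline, the antibiotic that switches such a construct on, and all 4 were harvested after 72 h, per the treatment protocol; the series text instead describes collection before and after induction. The series text calls the 2 samples of a group biological replicates. All 4 cultures carry the construct and no culture without it received doxycycline, so an effect of CXCL14 and an effect of the drug cannot be told apart. Whether the line is 1 clone is not given in the sources used here.

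The genes were chosen with their values in this contrast known, so those values are given as a description. TPM is a share of all transcripts after scaling for transcript length, which puts different genes on a common scale. Rows named Rpl or Rps and a digit, mostly ribosomal protein genes, held 0.190% to 0.274% of the TPM total in a library. The cause of so small a share was not tested. Ranks, shares and ratios between genes are therefore those of the deposited values and may not be those of the cells. The tables hold no read counts, so depth is unknown. Fitted differences are on the log2(TPM + 1) scale, doxycycline minus control, with the SE from a limma fit across the 11359 genes that averaged 1 TPM or more. A gene is called where its Benjamini-Hochberg adjusted p was under 0.05. In that fit 64.4% of the genes tested were called, 29.0% as higher and 35.4% as lower after doxycycline, and 11.2% were called with a log2 difference of at least 1 in size. The groups did not overlap in TPM for 82.7% of the genes tested.

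The mouse Cxcl14 row was at 27.3 and 29.2 TPM in the 2 control libraries, against 385 and 391 TPM with doxycycline, higher in the libraries labelled as induced. The labels do not say whether the construct carries the mouse or the human sequence. This row may hold transcripts of the construct, of the cells' own gene or of both. Of 10 colon epithelial markers, 10 had a mean below 1 TPM, and Cdh1, Krt19 and Cdx2 were listed at 0 in all 4 libraries, so the labelled colon origin was not visible in those transcripts. The 10 macrophage markers summed to 10.4 to 12.2 TPM in the controls and 7.54 to 9.06 TPM after doxycycline, with C1qa, Laptm5 and Cd163 at 0 throughout. The 6 hepatocyte markers summed to at most 0.781 TPM and the 6 erythroid markers to at most 0.809 TPM in a library. The 7 fibroblast markers summed to 3428 and 3620 TPM with solvent alone and 523 and 493 TPM with the drug. Nearly all of each sum came from Dcn and Pdgfra, which both fell. Of the 7 markers, 4 averaged below 1 TPM, with Thy1 at 0 throughout. Col1a1 did not follow the fall, with overlapping groups: 2.43 and 2.14 TPM for solvent, against 3.39 and 2.02 TPM for the drug. The part of the fall in Dcn and Pdgfra in the iron gene values was not tested. Whether any cell type became fewer was not tested either. In bulk RNA, fewer cells of a type and less RNA per cell cannot be told apart.

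Cells take up transferrin-bound iron through the transferrin receptor, reduce it in endosomes with STEAP metalloreductases, and pass it to the cytosol through the divalent metal transporter. Iron that is not used is stored in ferritin, a shell of heavy and light chains, or leaves through ferroportin together with a ferroxidase such as ceruloplasmin. When iron is scarce, the iron regulatory proteins Aco1 and Ireb2 bind hairpins called iron-responsive elements. Binding before the coding sequence blocks translation, as in ferritin, and binding after it stabilises the transcript, as in the transferrin receptor.

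The hairpins are shown because they separate the members into those whose transcript level and those whose translation the iron regulatory proteins are known to act on. They were sought in the untranslated regions of GENCODE M21 transcripts as a bulged C, 5 bases, the loop CAGTGN and 5 bases that pair with the first 5, G with T pairs allowed. Of 21877 genes searched, 160 (0.731%) held such a match, and of the 10 members 4 did. With 4 of 5 pairs required, Slc11a2 also matched, as did 4.90% of all genes. Each sequence runs 5′ to 3′ with 6 flanking bases on each side, and capitals mark the bulged C and the loop.
Fth1, before the coding sequence: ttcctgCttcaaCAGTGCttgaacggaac
Ftl1, before the coding sequence: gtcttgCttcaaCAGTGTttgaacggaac
Slc40a1, before the coding sequence: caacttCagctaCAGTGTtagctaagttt
Tfrc, after the coding sequence, match 1: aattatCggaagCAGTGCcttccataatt
Tfrc, match 2: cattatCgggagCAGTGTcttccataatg
Tfrc, match 3: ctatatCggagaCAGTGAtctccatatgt
Tfrc, match 4: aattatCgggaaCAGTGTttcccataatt
Slc11a2, after the coding sequence, 4 of 5 pairs: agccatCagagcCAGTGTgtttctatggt
A match describes letters and does not show binding. No match was found in Cp or in the 4 STEAP genes. Hairpins with a loop other than CAGTGN were not sought, so a gene may hold more than the matches given.

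Of the 10 members, 9 reached the mean of 1 TPM needed for the fit, and Slc40a1 did not. After doxycycline Steap1 was called higher and Fth1, Tfrc, Slc11a2, Cp, Steap3 and Steap4 lower, while Ftl1 and Steap2 were not called. These 7 calls among 9 genes (77.8%) stand beside 64.4% of all genes tested, the 1 higher beside 29.0% and the 6 lower beside 35.4%. The difference was called and at least 1 in size for 6 of the 9, beside 11.2% of all genes, and the groups did not overlap for 8 of the 9, beside 82.7%. Nothing is read from these counts because the members were chosen on this contrast. The median of the 9 differences was -1.32, against -0.04 over all genes tested.

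**Figure D1:**
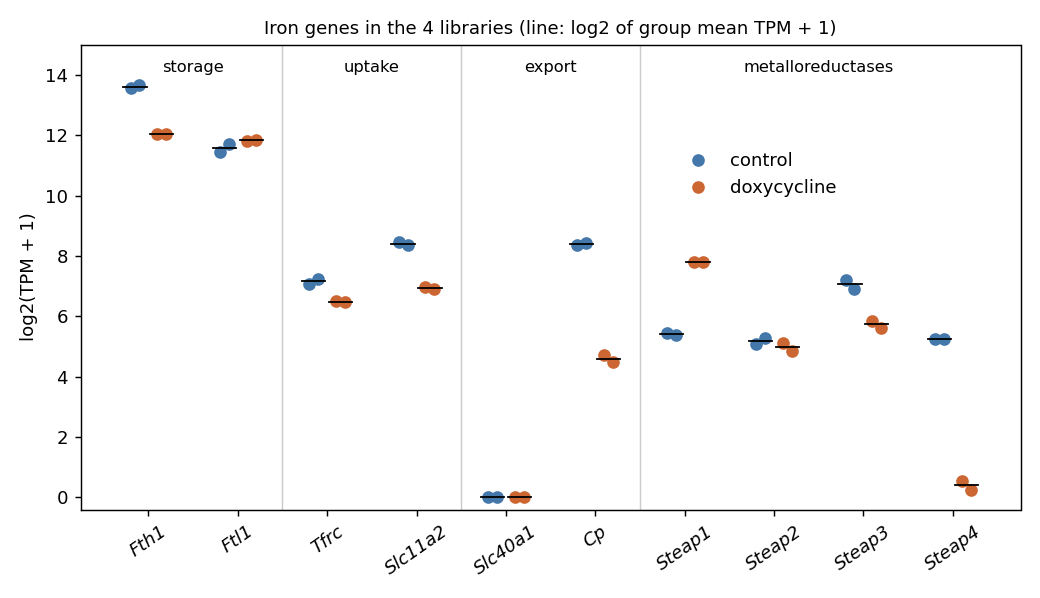
Level of each iron gene, as log2(TPM + 1), in the 2 control (blue) and 2 doxycycline (orange) libraries, ordered by role. Each point is a library and each line marks the log2 of the group mean TPM plus 1. Fth1 and Ftl1 are the most abundant, Slc40a1 is at 0 in all 4 libraries, and Cp and Steap4 show the widest gaps downwards.

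The storage genes parted. Fth1, the ferritin heavy chain with ferroxidase activity, was at 12191 and 12864 TPM in the controls and at 4225 TPM in both doxycycline libraries. The groups lay far apart, and the doxycycline libraries were nearly identical. Fth1 went from 12528 ± 476 to 4225 ± 0.179 TPM (SD, n = 2), which is 2.97-fold lower (log2 difference -1.57, SE 0.10). It held rank 3 among all genes by TPM in both control libraries and rank 8 in both doxycycline libraries. TPM assigns each library the same total, of which the table's rows cover 97.2% to 97.6%, and of that assigned total Fth1 made up 1.22% and 1.29% in the controls, against 0.423% and 0.422% with doxycycline.

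Ftl1, the ferritin light chain that promotes the mineral core, was at 2778 and 3371 TPM with solvent alone and reached 3611 and 3689 TPM with the drug. The second control lay closer to the doxycycline libraries than to the first control, although the groups did not overlap. The log2 difference of 0.25 (SE 0.10) did not pass the threshold. Without control replicate 2 it was 0.39 and passed, and without control replicate 1 it was 0.11 and did not. GENCODE M21 holds 4 pseudogenes with at least 97% identity to an Ftl1 transcript over at least 100 bases, so reads may be shared among copies and the level of Ftl1 is uncertain. Of these only Ftl1-ps2 was in the table, at 0.0389 and 0.424 TPM in the controls and 0 after doxycycline. The same search found none for the other 9 members.

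Heavy chain transcripts outnumbered light chain transcripts by 4.39 and 3.82 to 1 in the controls, against 1.17 and 1.15 to 1 with doxycycline. The ratio was thus above 3 in each control and close to 1 in each doxycycline library. Summed ferritin transcripts were at 14969 and 16235 TPM without doxycycline and 7836 and 7914 TPM with it. Both ferritin transcripts carry the hairpin printed above before their coding sequence.

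The uptake genes were both lower. Tfrc, the transferrin receptor that carries 4 hairpin matches after its coding sequence, was at 135 and 149 TPM in the 2 control libraries, against 89.6 and 88.2 TPM with doxycycline. Both doxycycline libraries were below both controls. The change from 142 ± 9.83 to 88.9 ± 1.03 TPM (SD, n = 2) was 1.59-fold (log2 difference -0.66, SE 0.07).

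Slc11a2, the divalent metal transporter also called DMT1, was at 352 and 325 TPM with solvent alone, compared with 125 and 119.7 TPM with the drug. No overlap between groups was seen. It went from 338 ± 19.2 to 123 ± 4.04 TPM (SD, n = 2), 2.76-fold lower (log2 difference -1.46, SE 0.06). Slc11a2 has isoforms with and without the hairpin, and the table gives 1 value per gene, so the isoforms were not separated.

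Of the export genes, Slc40a1, which encodes ferroportin, the iron exporter of vertebrate cells, was listed at 0 in all 4 libraries. Cp encodes ceruloplasmin, a copper-containing ferroxidase of plasma and an acute phase protein made mainly by the liver. Cp was at 325 and 347 TPM without doxycycline and 25.4 and 21.3 TPM with it, and the groups lay far apart. Its mean went from 336 ± 16.0 to 23.3 ± 2.90 TPM (SD, n = 2), 14.4-fold lower (log2 difference -3.80, SE 0.09). Hepatocyte markers were near 0 in the same libraries, with Ttr and Ahsg at 0 throughout.

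The 4 STEAP metalloreductases showed different patterns. STEAP proteins are membrane proteins with a heme that carries electrons across the membrane to iron or copper, and Steap1 lacks the NADPH-binding domain of the other three. RefSeq places Steap1 next to Steap2 on chromosome 5, with Steap4 on the same chromosome and Steap3 on chromosome 1. Steap1 was at 43.0 and 41.2 TPM in the 2 control libraries, against 223 and 221 TPM with doxycycline. The replicates were close in both groups, and Steap1 went from 42.1 ± 1.31 to 222 ± 1.17 TPM (SD, n = 2), 5.27-fold higher (log2 difference 2.37, SE 0.06).

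Its neighbour Steap2, which reduces iron and copper, was at 32.9 and 38.2 TPM with solvent alone, compared with 34.0 and 27.9 TPM with the drug. The groups overlapped, and the log2 difference of -0.20 (SE 0.11) did not pass the threshold. Without doxycycline replicate 1 it was -0.33 and passed, the only one of 14 alternatives in which it did. Without doxycycline replicate 2 it was -0.059 and without control replicate 2 -0.090, and neither passed. Steap3, the ferrireductase of transferrin endosomes in red cell precursors, was at 148 and 118 TPM without doxycycline and 57.1 and 48.1 TPM with it. The groups did not overlap, although the controls were spread. Steap3 went from 133 ± 21.1 to 52.6 ± 6.40 TPM (SD, n = 2), 2.53-fold lower (log2 difference -1.32, SE 0.11).

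Steap4, a metalloreductase induced in inflammation and also known as STAMP2, was at 36.9 and 37.0 TPM in the 2 control libraries, against 0.458 and 0.177 TPM with doxycycline. The controls agreed closely and the doxycycline libraries were both below 1 TPM. The log2 difference was -4.86 (SE 0.13), and it depends on the pseudocount at such low values: -6.56 with a pseudocount of 0.1 and -3.54 on the FPKM scale. Means were 37.0 ± 0.108 and 0.317 ± 0.199 TPM (SD, n = 2), a ratio of 117. In a check added after seeing the data, the ratio was 209 without doxycycline replicate 1 and 80.7 without doxycycline replicate 2.

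**Figure D2:**
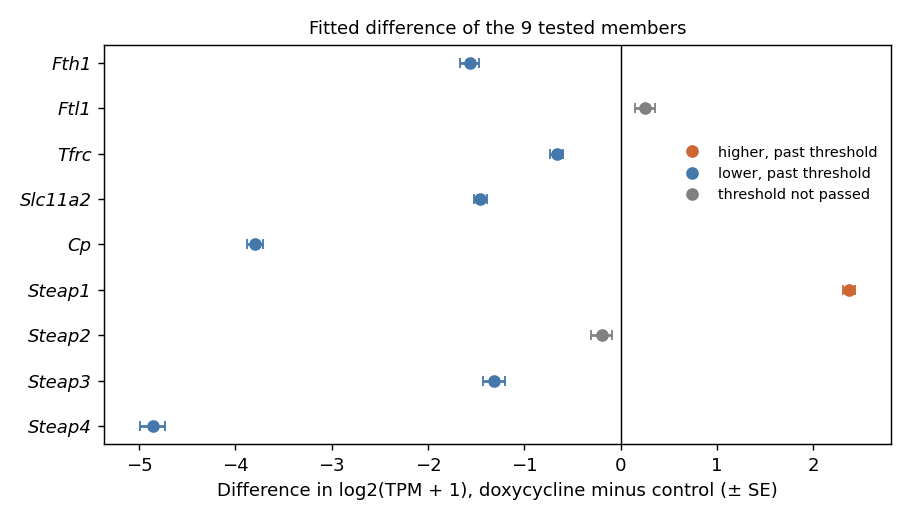
Difference in log2(TPM + 1), doxycycline minus control, of the 9 members in the fit, with bars of 1 SE from limma. Orange marks Steap1, called higher at 2.37; blue marks the 6 called lower, from -0.66 (Tfrc) to -4.86 (Steap4); grey marks Ftl1 and Steap2, which were not called.

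Summed over the family, STEAP transcripts were at 260.5 and 234 TPM with solvent alone and reached 314 and 297 TPM with the drug. The sums differed far less than their makeup. Steap3 made up 56.7% and 50.3% of the sum in the controls, against 18.2% and 16.2% with doxycycline. Steap1 made up 16.5% and 17.6% in the controls, against 70.9% and 74.4% with doxycycline. Steap4 went from 14.2% and 15.8% to 0.146% and 0.0595%.

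**Figure D3:**
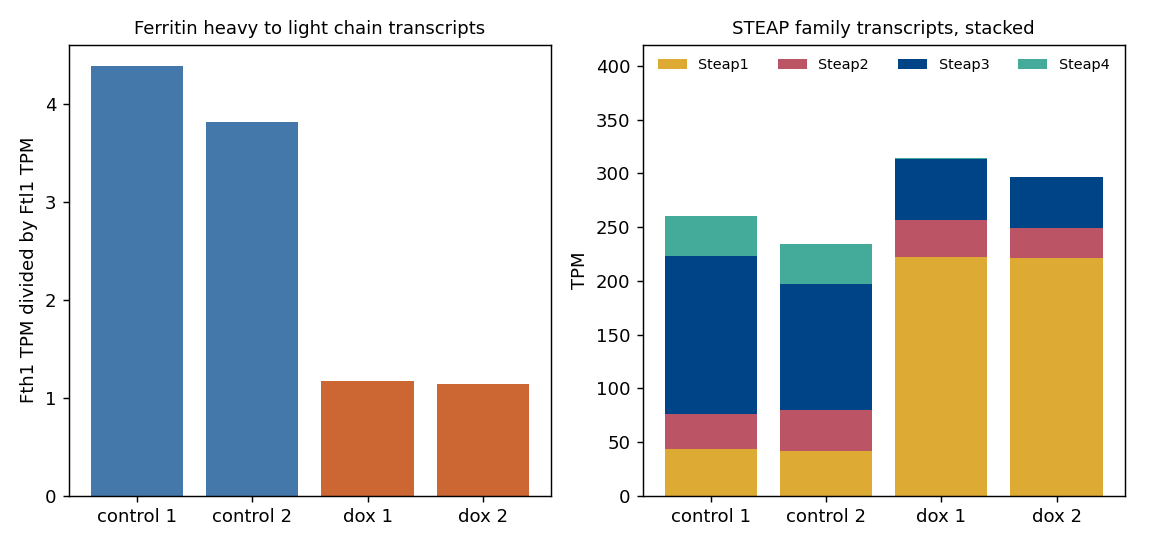
Left, Fth1 TPM divided by Ftl1 TPM in each library, from 4.39 and 3.82 in the controls (blue) to 1.17 and 1.15 after doxycycline (orange). Right, stacked TPM of the 4 STEAP genes in each library, where Steap3 is the largest share in the controls and Steap1 after doxycycline.

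The order of levels changed with the group. In the controls it ran Fth1, Ftl1, Slc11a2, Cp, Tfrc, Steap3, Steap1, Steap4, Steap2 and Slc40a1. The libraries of Slc11a2 and Cp overlapped there, as did those of Tfrc and Steap3 and those of Steap4 and Steap2. After doxycycline it ran Fth1, Ftl1, Steap1, Slc11a2, Tfrc, Steap3, Steap2, Cp, Steap4 and Slc40a1, with no overlap between neighbours. Cp thus moved from place 4 to 8, and Steap1 from place 7 to 3.

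The promoters of Steap4 and Steap1 are shown because these genes of 1 family and chromosome lay at opposite ends of the 9 members' differences. Both are the 250 bases before the RefSeq start, 5′ to 3′ on the gene's strand, build GRCm38.p6, which is not the mm39 build of the deposited values. Motifs of factors of inflammation and stress were sought on both strands: the NF-kappaB motif, C/EBP (TTGCNNAA), the combined C/EBP and ATF element (TGATGNAA) and the antioxidant response element (TGACNNNGC). Capitals mark matches.
Steap4, chr5:7960222-7960471, plus strand: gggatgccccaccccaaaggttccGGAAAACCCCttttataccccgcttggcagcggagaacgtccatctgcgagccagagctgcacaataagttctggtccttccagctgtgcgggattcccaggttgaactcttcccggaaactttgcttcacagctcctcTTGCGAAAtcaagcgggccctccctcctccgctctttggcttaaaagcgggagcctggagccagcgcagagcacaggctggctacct
Steap1, chr5:5749318-5749567, minus strand: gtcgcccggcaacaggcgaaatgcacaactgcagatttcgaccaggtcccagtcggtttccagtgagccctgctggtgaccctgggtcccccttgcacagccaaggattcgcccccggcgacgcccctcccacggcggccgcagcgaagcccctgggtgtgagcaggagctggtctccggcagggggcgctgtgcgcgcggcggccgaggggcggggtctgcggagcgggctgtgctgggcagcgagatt
Steap4 held 1 NF-kappaB match, whose first base is at -226 from the start, and 1 C/EBP match at -87. Steap1 held none of the 4 motifs in this window. The table gave 16 starts for 8 members and none for Slc11a2 or Slc40a1, which were not searched. Of these windows 6 held a match to any of the 4 motifs. The share of all promoters that match any of the 4 was not computed, so nothing is read from that count. The NF-kappaB motif was also in 1 of 3 windows of Steap2, which was not called, and in 1 of 4 of Steap3, which was lower. The C/EBP motif was also in 1 window each of Steap3, Fth1 and Cp, and the antioxidant response element in 1 of Steap2. No motif was found in the windows of Tfrc, which was lower, or of Ftl1. Sequence outside the 250 bases was not searched, so a gene without a match here may hold these motifs elsewhere. Among all 32851 promoters in the table, 5.00% held the NF-kappaB motif, 9.56% the C/EBP motif, 3.45% the C/EBP and ATF element and 10.2% the antioxidant response element. A match is a description of letters and not evidence of binding.

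Other genes of iron handling, listed by function, were taken from the same fit. These lists were drawn up with earlier results of the data known, so their counts are a description of the listed genes and nothing about the groups is read from them. Among 14 further uptake genes, 9 were tested, of which 3 rose (33.3%, beside 29.0% of all genes) and 5 fell (55.6%, beside 35.4%). Ltf and Slc22a17 were listed at 0 in all libraries. Lcn2, the lipocalin that binds iron-laden siderophores, was at 1101 and 1281 TPM without doxycycline and 14.3 and 12.9 TPM with it, and fell by 6.35 on the log2 scale (limma adjusted p = 4.5e-10). Bdh2, an enzyme linked to siderophore synthesis, was at 42.5 and 41.0 TPM in the 2 control libraries, against 17.7 and 16.8 TPM with doxycycline, a fall (log2 difference -1.23, limma adjusted p = 1.2e-06). Slc39a14, the ZIP14 carrier of iron not bound to transferrin, fell from 88.9 and 76.6 TPM to 46.7 and 43.1 TPM (log2 difference -0.86, limma adjusted p = 2.0e-05).

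Mcoln1, a lysosomal cation channel, also fell (log2 difference -0.35, limma adjusted p = 0.0022). Scara5, a receptor for ferritin, rose from 4.93 and 4.71 TPM to 8.36 and 9.47 TPM (log2 difference 0.77, limma adjusted p = 3.2e-04). Exoc6 and Picalm, which act in vesicle traffic of the transferrin receptor, rose too (log2 difference 0.63 and 0.39). Snx3, a sorting nexin of the same cycle, fell by 0.24 on the log2 scale (limma adjusted p = 0.029). That call was lost in 5 of 14 alternatives, with adjusted p from 0.081 to 0.16, including when control replicate 2 (0.16) or doxycycline replicate 1 (0.10) was left out.

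Of 13 further genes of storage, export and reduction, 7 were tested. Of these 4 rose (57.1%, beside 29.0% of all genes) and 1 fell (14.3%, beside 35.4%). The share called either way, 71.4%, was near the 64.4% of all genes. Heph, a ferroxidase related to Cp, and Hamp, which encodes the hormone hepcidin, were listed at 0 throughout. Ncoa4, the receptor that delivers ferritin to lysosomes, was at 39.0 and 39.2 TPM with solvent alone and reached 55.5 and 58.1 TPM with the drug, a rise of 0.53 on the log2 scale (limma adjusted p = 1.0e-04). Pcbp2, an iron chaperone that also binds RNA, rose from 1420.0 and 1309 TPM to 1841 and 1810 TPM (log2 difference 0.42, limma adjusted p = 9.0e-04).

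Its relative Pcbp1, which loads ferritin, rose by less (log2 difference 0.17, limma adjusted p = 0.033). That call was lost in 6 of 14 alternatives, with adjusted p up to 0.28, including without control replicate 1 (0.065) and without doxycycline replicate 1 (0.25) or 2 (0.059). Among other reductases, Cyb561 rose (log2 difference 0.49), Cyb561a3 fell (-0.38) and Frrs1 did not pass (-0.17, limma adjusted p = 0.062).

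Of 18 regulators of iron listed, 13 were tested, and 11 (84.6%) were called lower and 0 higher by limma, beside 35.4% and 29.0% of all genes. The 2 that did not pass were Aco1 and Neo1 (Neo1 is named here after its value was seen), and 0 regulators were higher at an unadjusted p under 0.05. Under median-of-ratios scaling 1 was called higher, Aco1 (log2 difference 0.16). The median difference was -0.58, against -0.04 over all genes tested. The list was chosen with earlier results known, as above, so this count is a description. Hjv, which encodes the BMP co-receptor hemojuvelin, was listed at 0 throughout. Aco1, the first iron regulatory protein, was at 79.2 and 76.5 TPM without doxycycline and 83.0 and 82.9 TPM with it and did not pass (log2 difference 0.09, limma adjusted p = 0.22). Fbxl5, the iron-sensing ubiquitin ligase subunit that removes Ireb2, fell from 101 and 108 TPM to 72.0 and 67.4 TPM (log2 difference -0.58, limma adjusted p = 5.9e-05). Ireb2, named after its values were seen, fell by 0.26 (limma adjusted p = 0.0053).

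Nfe2l2, which encodes the antioxidant factor NRF2, fell from 253 and 258 TPM to 169 and 165 TPM (log2 difference -0.61, limma adjusted p = 1.5e-05). Bach1, named after its values were seen, fell from 40.3 and 38.1 TPM to 21.71 and 21.65 TPM (log2 difference -0.83, limma adjusted p = 1.2e-05). Acvr1, a BMP receptor upstream of hepcidin, fell as well (log2 difference -0.60, limma adjusted p = 3.4e-05). The largest fall in this list was that of Bmp2, named after its values were seen. It went from 43.6 and 47.7 TPM to 9.86 and 8.94 TPM (log2 difference -2.16, limma adjusted p = 1.2e-07). Bmp2 was the only regulator called with a difference of at least 1 in size.

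Of 25 heme genes listed, 22 were tested, of which 4 rose (18.2%, beside 29.0% of all genes) and 9 fell (40.9%, beside 35.4%). The share called either way, 59.1%, was near the 64.4% of all genes, and the median difference was -0.15. Cd163, the receptor for hemoglobin bound to haptoglobin, was listed at 0 throughout. Cpox, an enzyme of heme synthesis in mitochondria, was at 77.4 and 73.0 TPM in the 2 control libraries, against 268 and 295 TPM with doxycycline, a 3.75-fold rise (log2 difference 1.89, limma adjusted p = 6.1e-08). Abcb6, a porphyrin transporter, rose (log2 difference 0.69), as did Slc25a38, a mitochondrial glycine carrier (0.45), and Flvcr1, a heme exporter and choline transporter (0.24). The call on Flvcr1 was lost without doxycycline replicate 2 (adjusted p = 0.051).

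Hmox1, the heme oxygenase that frees iron from heme, fell from 249 and 231 TPM to 175 and 199 TPM (log2 difference -0.36, limma adjusted p = 0.0024). Slc48a1, a heme transporter of endosomes, also fell (log2 difference -0.28, limma adjusted p = 0.0067). Tmem14c, which acts in porphyrin import into mitochondria, did not pass (log2 difference 0.04).

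All 32 genes listed for iron-sulfur cluster assembly and mitochondrial iron were tested, of which 16 (50.0%) rose and 4 (12.5%) fell, beside 29.0% and 35.4% of all genes. The median difference was 0.22, again as a description of a list chosen with earlier results known. Nfu1, a cluster carrier, was at 84.6 and 84.5 TPM with solvent alone and reached 293 and 304 TPM with the drug, a 3.53-fold rise (log2 difference 1.81, limma adjusted p = 3.2e-08). Cisd3, a mitochondrial iron-sulfur protein, rose from 100.2 and 91.5 TPM to 205 and 214 TPM (log2 difference 1.12, limma adjusted p = 8.9e-07). Hspa9, the mitochondrial chaperone mortalin, rose by 0.64 (limma adjusted p = 2.7e-05).

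Slc25a37, the mitochondrial iron importer mitoferrin 1, fell from 283 and 298 TPM to 121 and 111 TPM (log2 difference -1.31, limma adjusted p = 3.4e-07). Its relative Slc25a28, mitoferrin 2, named after its values were seen, rose from 40.3 and 34.6 TPM to 49.1 and 53.9 TPM (log2 difference 0.45, limma adjusted p = 0.0017). Ciao1 and Mms19, of cytosolic cluster delivery, fell (log2 difference -0.44 and -0.48). Fdxr, the ferredoxin reductase, fell by 0.32 (limma adjusted p = 0.028). That last call was lost in 5 of 14 alternatives, with adjusted p up to 0.21, including without control replicate 1 (0.18) and without doxycycline replicate 2 (0.11).

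**Figure D4:**
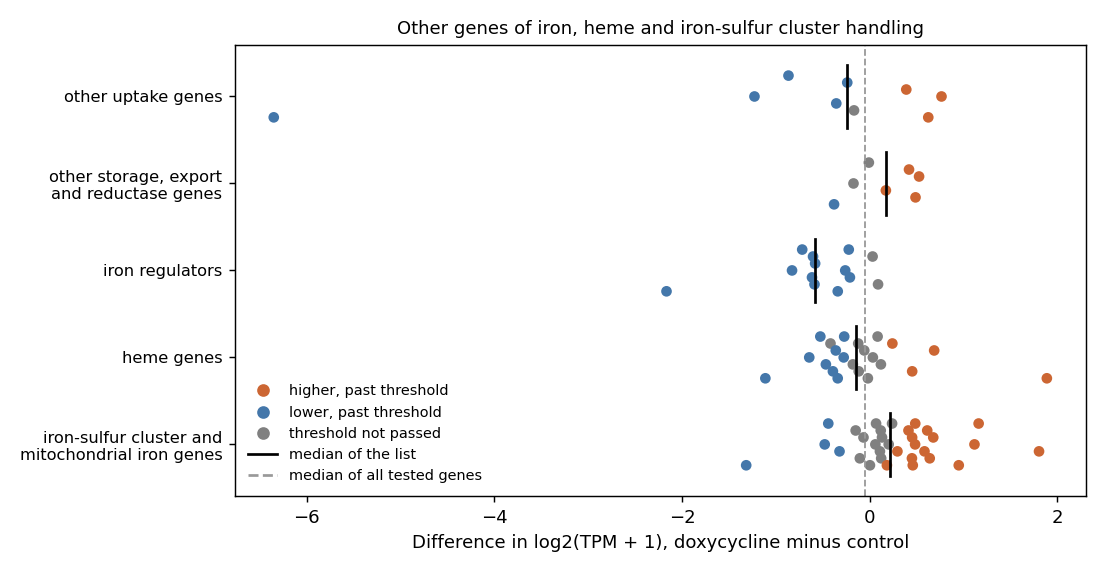
Difference in log2(TPM + 1), doxycycline minus control, of the tested genes in 5 lists of other iron, heme and iron-sulfur cluster genes, 1 point a gene. Orange and blue points passed the threshold as higher or lower and grey points did not, black lines are list medians and the dashed line is the median of all genes tested at -0.04. The regulators lie mostly to the left and the iron-sulfur cluster genes mostly to the right of it.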

How the data were processed

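RNA-seq was made from 2 control and 2 doxycycline cultures of 1 construct-bearing line. The authors deposited TPM and FPKM per gene symbol, per the file headers, from mRNA libraries, per the labels' protocols. The submitters' processing notes name build mm39. For the aligner, the quantifier and the annotation: not given in the sources used here. The median ratio of TPM to FPKM in a library was 3.08 to 3.14, and its spread over genes was not computed. Whole-read steps were not seen among low values (366 distinct ratios in 371 genes), which leaves depth and counting error unknown. Between 14330 and 14678 genes were above 0 in a library.

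Genes averaging 1 TPM or more were fitted on log2(TPM + 1), which understates changes of low genes, with limma 3.58.1 in R 4.3.3 (eBayes with trend, Benjamini-Hochberg over 11359 genes, no covariate). The fit was tested on simulated data. Ratios are of mean TPM. With 2 against 2 libraries an exact permutation test cannot go below p = 0.3333, and none is reported.

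The 10 members and all lists were chosen with earlier results of these data known. Named genes are the members, Cxcl14, in each of 5 other lists the 4 tested genes with the highest mean TPM, list genes at 0 throughout, and all genes past the threshold in a direction with 5 or fewer; others are marked. Hairpins and pseudogenes were sought in GENCODE M21 transcripts (blastn 2.17.0 for the pseudogenes), and promoters are from RefSeq, GRCm38.p6. These older annotations were used for sequence and gene order, not for values. The table's symbols matched all 10 members. Alternatives varied the pseudocount, the filter, the unit, the scaling, the limma settings, a replicate block and each library in turn.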

Additional observations from a re-analysis of the deposited data

How the results depend on the processing

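The 14 alternatives were other pseudocounts, filters, FPKM, median-of-ratios and quantile scaling, limma settings, a replicate block and leaving out each library. Of the members, 2 instead of 1 were called higher, the second being Ftl1, with a filter of 5 TPM, FPKM, median-of-ratios scaling, quantile scaling, robust limma and the replicate block. Leaving out 1 library gave 1 to 2 members higher and 6 to 7 lower, and 2785 to 3091 genes higher and 3527 to 3667 lower over all. Of the regulators, 1 was called higher under median-of-ratios scaling, against 0. The difference of Tmem14c was -0.021 under quantile scaling and ran from -0.064 to 0.13 with 1 library left out. With 1 library left in a group, that library is assumed to vary like the other group.

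The replicate block gave 3387 genes higher and 4114 lower, against 3295 and 4017. Same-numbered samples share only a number: their deviations correlated at -0.0053. Of the called genes 45.1% were higher, 51.8% under median-of-ratios and 53.6% under quantile scaling. Over single named genes 546 values kept their sign and their side of the threshold, 9 moved past it and 17 no longer passed. The 2 values that changed sign are those of Tmem14c, which was not called in either. The cause of these changes was not tested. Depth is unknown, so the precision of Steap4 after doxycycline and of other values below 1 TPM could not be set.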
